A study of Mus musculus with 6 samples.

Results

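The mRNA decay genes described here are those of deadenylation, decapping, the RNA exosome and nonsense-mediated decay, taken from the array's annotation by their symbols. A probe was a member if it carried a single symbol of the Cnot, Exosc, Upf, Smg, Dcp, Edc, Xrn, Btg, Tob or Ythdf families, or Pan2, Pan3, Parn, Dis3 or Patl1. This gave 38 genes on 39 probes, out of 13840 genes with a symbol and 33012 probes on the array, and no symbol was changed by the gene table used. A further 15 genes that the same symbols cover, among them Cnot1, Cnot6, Dcp2, Upf2, Xrn2 and Ythdf2, were not analysed here. Each of 6 arrays measured the RNA of 1 mouse oocyte: 3 were Ago2-deficient mature oocytes from [Ago2F/F, Zp3-Cre] females, in which Cre under the zona pellucida 3 promoter deletes floxed Ago2 in the growing oocyte, and 3 were wild-type germinal vesicle (GV) oocytes. The methods describe mature oocytes as ovulated metaphase II oocytes from the oviducts of adult females, freed of cumulus cells with hyaluronidase, and the labels give the GV oocytes the same source. The groups differ in genotype and in stage, and these cannot be told apart. Whether these came from separate animals is not stated, and p-values then cover only the spread among these cells, which may be technical.

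Most mRNAs are degraded from the tail. Deadenylases, chiefly the CCR4-NOT complex, shorten the poly(A) tail, after which the cap is removed by Dcp2 and its partners and the body is digested by Xrn1 from the 5′ end or by the exosome from the 3′ end, while nonsense-mediated decay directs transcripts with premature stop codons to the same enzymes. Argonaute proteins act through this machinery too, since the TNRC6 proteins they bind recruit CCR4-NOT and PAN2-PAN3. The mouse oocyte stores stable maternal mRNAs during growth and clears many of them as it matures, and Btg4, an adaptor that brings CCR4-NOT to these mRNAs, is known to be needed for that clearance.

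Fewer mRNA decay genes were detected in the Ago2-deficient oocytes than in the GV oocytes. A gene counted as detected where the signal of a probe was 3 or more times its noise. The Ago2-deficient oocytes showed 9, 15 and 17 of the 38 genes, and the GV oocytes 28, 24 and 27. The means were 13.7 ± 4.16 and 26.3 ± 2.08 genes (SD, n = 3; two-sided p = 0.1 by an exact permutation test, which cannot go lower with 3 oocytes against 3). Every Ago2-deficient oocyte lay below every GV oocyte. Genes of the array as a whole moved the same way, from 16.8 to 25.1% of all 13840 genes detected in the Ago2-deficient oocytes against 41.5 to 43.7% in the GV oocytes. The median signal of all probes was 168 to 258 on the Ago2-deficient and 93.2 to 116 on the GV arrays. The part of this shift in the results below was not tested. Of the 38, 7 genes were detected in all 6 oocytes, namely Btg4, Tob1, Cnot4, Edc4, Exosc4, Exosc10 and Upf1. A further 13 were detected in all 3 GV oocytes but not in every Ago2-deficient oocyte, and of these Btg2, Exosc5, Exosc8 and Pan2 were found in no Ago2-deficient oocyte. The remaining 18 were detected throughout neither group, and 5 of them, Btg1, Cnot9, Edc3, Parn and Smg9, in no oocyte. Among all genes tested below and detected in all 3 GV oocytes, 33.9% went undetected across the Ago2-deficient group, beside 20% of such members. That share of all genes was 51.6% at mean GV log2 signals from 9 to 10, where Exosc5 and Exosc8 lay. It was 39.4% from 10 to 11, where Btg2 lay.

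**Figure D1:**
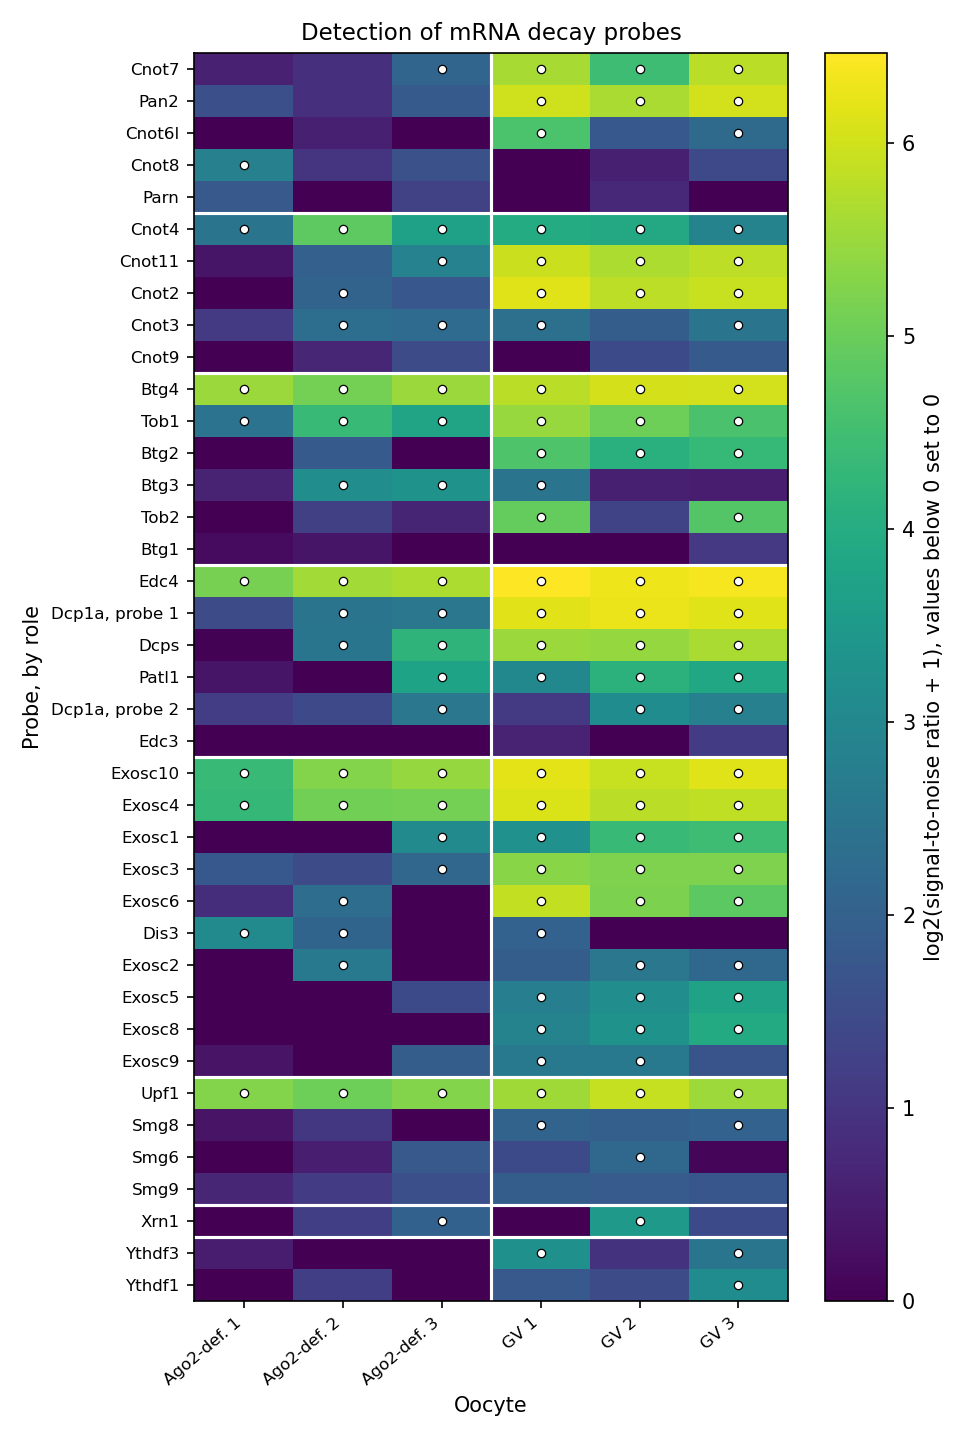
Signal-to-noise ratio (colour, as log2 of the ratio + 1, with values below 0 set to 0) of the 39 mRNA decay probes (rows, grouped by role and separated by white lines) in the 3 Ago2-deficient and 3 GV oocytes (columns); circles mark detected probes. The Ago2-deficient columns hold 9 to 17 detected genes and the GV columns 24 to 28.

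The probe for Ago2 was above the detection limit in 1 of the 6 oocytes, a GV oocyte, and its values overlapped between groups, so it does not check the genotype. Of 11 oocyte markers, 7 were detected in all Ago2-deficient and 10 in all GV oocytes. Zp2, Figla and Ddx4 were detected in no Ago2-deficient oocyte, and Ddx4 in only 1 GV oocyte. Of 17 genes of cumulus and granulosa cells, 2 were detected in all Ago2-deficient oocytes (Btc and Ereg) and 3 in all GV oocytes (Hsd17b1, Inha and Nr5a2). Their summed level was 13.93 to 15.40 (log2) in the Ago2-deficient and 12.39 to 12.88 in the GV oocytes, with Amh, Has2 and Fshr detected in none, and its part in the results was not tested.

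Transcripts of 2 deadenylases, 2 other CCR4-NOT subunits, 1 adaptor, 2 decapping proteins and 4 exosome subunits were lower in the Ago2-deficient oocytes, and those of 2 adaptors, 1 exosome subunit and the nonsense-mediated decay helicase Upf1 were higher. The comparison used the authors' quantile-normalized log2 signals of probes detected in all 3 oocytes of at least 1 group, fitted together with limma, with calls made at an adjusted p below 0.05 and more than a 2-fold change. Of the 38 genes, 20 passed this filter, every one of them through the GV group and 7 through the Ago2-deficient group as well. Of the 20, 11 were lower, 4 were higher and 5 were not called, so that 15 were called where 62.2% of all 7915 tested genes were. Of these 7915, 4568 carried 1 symbol. Each tested probe without a single symbol counted as a gene of its own. Lower calls were 44.8% and higher calls 17.4% of all tested genes. The groups did not overlap in 16 of the 20, and in 70.4% of all tested genes. Since 13 genes passed the filter only through the GV oocytes, these counts are a description and not a sign that the machinery as a whole moved. The median log2 difference of the 20, Ago2-deficient minus GV, was -1.88 (-1.87 with genes undetected in a group at their bound), and that of all tested genes was -1.39 (-1.38). A gene at -1.39 was therefore typical of the tested genes as normalized here. The 2497 tested genes detected in all 6 oocytes had a median of 0.83, and the 7 members among them 1.65.

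Both the number of higher calls and their direction depended on how arrays were scaled. With arrays shifted to a common median, 0 of the 20 were higher and 16 lower, beside 3.93% and 78.6% of all tested genes. With no scaling 1 and 12 were (7.69% and 60.4% of all), with cyclic loess 5 and 9 (24.7% and 31.8%), and with arrays centred on probes detected in all 6 oocytes 4 and 11 (16.4% and 39.7%). The median log2 difference of the 20 under these scalings was -4.27, -3.17, -0.96 and -2.06, and that of all tested genes -3.08, -1.98, -0.36 and -0.87. The median of the 20 thus lay -0.49 from that of all genes as normalized by the authors, -0.60 with cyclic loess and -1.19 with each of the other 3. Equal amounts of amplified cDNA were labelled from each oocyte, so the values are shares of that cDNA and not amounts per oocyte.

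**Figure D2:**
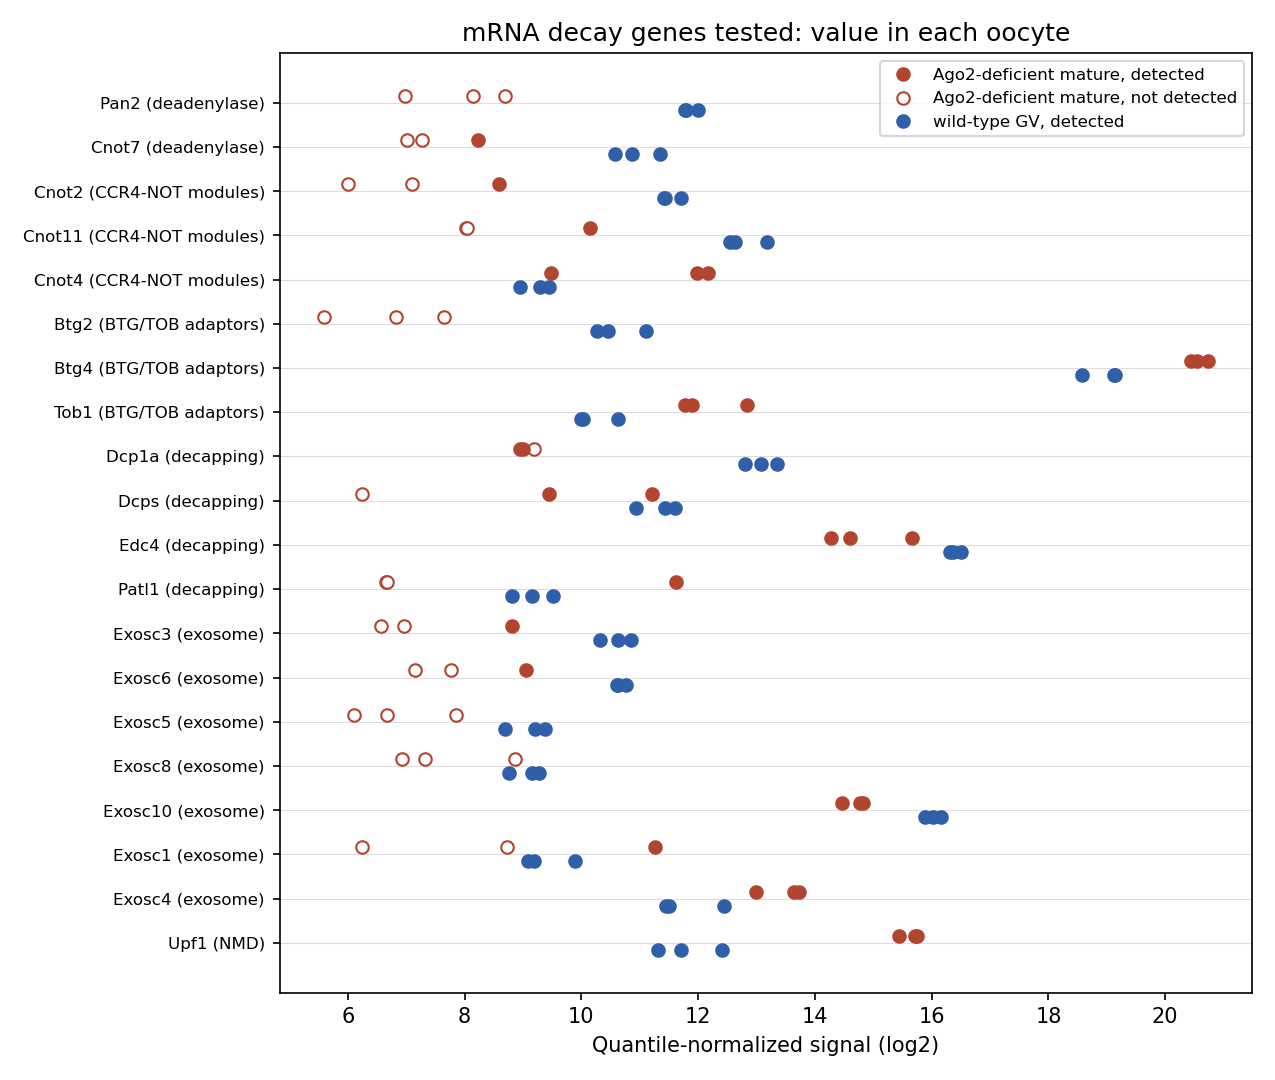
Quantile-normalized log2 signal (horizontal axis) of the 20 tested mRNA decay genes in each Ago2-deficient mature (red) and wild-type GV oocyte (blue); open circles are values under the detection limit. Red and blue points do not overlap in 16 genes, and red points lie to the right in 5 of these (Btg4, Tob1, Cnot4, Exosc4 and Upf1).

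The promoters of 4 members are given to show sequence beside the level: Btg4, the oocyte adaptor, and Upf1, the member with the largest increase, and, among the lower genes, Dcp1a, with the smallest p, and Pan2, a deadenylase undetected in every Ago2-deficient oocyte. Each run, from RefSeq on GRCm38.p6, covers 250 bases before to 50 after the annotated start, written 5′ to 3′ along the gene. Capitals mark the E-box CANNTG, the sequence that basic helix-loop-helix factors bind, searched on both strands. Positions are chr9:51115751-51116050 (+ strand) for Btg4, chr8:70353230-70353529 (- strand) for Upf1, chr14:30479315-30479614 (+ strand) for Dcp1a and chr10:128303085-128303384 (+ strand) for Pan2.
Btg4: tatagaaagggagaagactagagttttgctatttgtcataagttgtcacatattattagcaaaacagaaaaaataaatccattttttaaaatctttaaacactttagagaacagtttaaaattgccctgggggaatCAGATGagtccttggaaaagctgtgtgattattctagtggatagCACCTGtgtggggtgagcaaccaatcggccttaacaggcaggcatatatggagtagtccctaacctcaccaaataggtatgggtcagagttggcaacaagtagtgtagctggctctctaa
Upf1: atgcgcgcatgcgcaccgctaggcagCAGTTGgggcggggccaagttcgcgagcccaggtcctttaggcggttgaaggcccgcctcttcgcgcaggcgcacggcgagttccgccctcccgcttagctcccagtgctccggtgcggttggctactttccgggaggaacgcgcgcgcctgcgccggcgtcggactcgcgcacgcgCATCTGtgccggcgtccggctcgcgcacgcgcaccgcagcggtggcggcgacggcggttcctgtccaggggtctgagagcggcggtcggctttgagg
Dcp1a: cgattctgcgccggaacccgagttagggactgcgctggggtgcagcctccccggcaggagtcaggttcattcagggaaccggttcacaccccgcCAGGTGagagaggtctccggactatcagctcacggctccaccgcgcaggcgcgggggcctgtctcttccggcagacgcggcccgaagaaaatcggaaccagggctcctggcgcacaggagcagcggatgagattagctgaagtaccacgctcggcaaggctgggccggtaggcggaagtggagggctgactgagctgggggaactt
Pan2: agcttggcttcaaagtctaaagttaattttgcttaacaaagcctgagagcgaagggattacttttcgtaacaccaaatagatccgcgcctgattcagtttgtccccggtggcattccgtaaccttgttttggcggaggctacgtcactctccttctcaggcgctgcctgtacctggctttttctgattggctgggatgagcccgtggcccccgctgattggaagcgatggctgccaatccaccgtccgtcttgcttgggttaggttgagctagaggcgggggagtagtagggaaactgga
Btg4 and Upf1 each held 2 E-boxes, Dcp1a held 1 and Pan2 none. The motif occurred in 21 of the 34 members with a listed promoter and in 72.1% of 27025 promoters of this length. Pan2 held 3 CCAAT boxes and Btg4 1, and this motif, on either strand, occurred in 16 of 34 members and 37.9% of all promoters. TATAAA was in none of the 4, in 2 of 34 members and in 14.2% of all promoters. The Btg4 window had 1 CG dinucleotide, the fewest of the 34, where Pan2 had 15, Dcp1a 25 and Upf1 47 and the median of the 34 was 24.0, against 7.0 for all promoters. The 4 printed windows thus differ widely in CG content, with Btg4 the lowest and Upf1 the highest. Matches of letters do not show binding.

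Of the deadenylase genes, Cnot7 and Pan2 were tested and both were lower. Both passed the filter only through the GV oocytes, which favoured that direction. Cnot7, a catalytic subunit of CCR4-NOT, had log2 signals of 7.26, 7.02 and 8.23 in the mutant oocytes and 11.36, 10.57 and 10.87 in the GV oocytes. The groups did not overlap, and only the third Ago2-deficient oocyte reached detection. The log2 difference was -3.43 (standard error, SE, 0.44, limma adjusted p = 0.000823), so part of it rests on signals under the detection limit. Pan2, the catalytic subunit of PAN2-PAN3, which trims long tails, read 8.14, 6.98 and 8.69 against 11.996, 11.77 and 11.79 and was detected in no Ago2-deficient oocyte. By its bound it was 15.1-fold lower (limma adjusted p = 0.000734). The bound was set by the lowest signal detected on each array, or by the signal of the probe where that was higher. For Pan2 it equalled the fitted log2 difference of -3.92. The bound is not a strict minimum, since a probe can go undetected above that lowest signal. Pan2 did so at 8.69 on the third Ago2-deficient array, where the lowest detected signal was 6.31. This value is for the authors' normalization with all 6 arrays, and without Ago2-deficient replicate 2 the bound was -3.44 in log2 units. With centred arrays (-3.64) and cyclic loess (-1.92) Pan2 was called at a log2 difference short of the bound. Of all tested genes whose GV mean lay between 11 and 12, as that of Pan2 did, 25.9% were found in no Ago2-deficient oocyte.

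The other deadenylase genes did not pass the filter. Cnot6l, another catalytic subunit, read 10.28, 7.13 and 8.84 in the GV oocytes, detected in replicates 1 and 3, and 6.93, 6.73 and 6.71 in the Ago2-deficient oocytes, detected in none. Cnot8, the paralogue of Cnot7, was detected only in the first Ago2-deficient oocyte (8.89, against 6.28 and 7.98 in the others and 5.95 to 7.22 in GV oocytes). Parn, a poly(A)-specific ribonuclease, was detected in no oocyte, although its signal reached 11.04 in the first Ago2-deficient oocyte.

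Of the non-catalytic CCR4-NOT subunits 3 were tested, of which 2 were lower and Cnot4 was not called. Cnot2, which holds the complex together with Cnot3, read 5.997, 8.60 and 7.11 in the Ago2-deficient and 11.70, 11.42 and 11.43 in the GV oocytes. Only the second Ago2-deficient oocyte was above the detection limit. The log2 difference was -4.28 (SE 0.66, limma adjusted p = 0.00163), and it was -3.67 without Ago2-deficient replicate 1 and -4.97 without Ago2-deficient replicate 2. Cnot11, of the module that joins Cnot10, read 8.03, 8.03 and 10.15 against 13.19, 12.55 and 12.64. It differed by -4.05 (SE 0.64, limma adjusted p = 0.00182), and by -4.76 without Ago2-deficient replicate 3, the only mutant oocyte in which it was detected.

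Cnot4, a ubiquitin ligase bound to the complex, had a positive difference. It was detected in all 6 oocytes at 9.48, 11.98 and 12.18 in the Ago2-deficient and 9.30, 9.45 and 8.95 in the GV oocytes, with the first mutant oocyte just above the GV range. Its log2 difference of 1.98 (SE 0.74) was not called at limma adjusted p = 0.0535. Without Ago2-deficient replicate 1 it was 2.85 and was called (limma adjusted p = 0.000699), as it was with cyclic loess (3.63), centred arrays (2.11) and array weights (2.37), but with arrays shifted to a common median it was -0.10. Cnot3 was detected in 2 oocytes of each group, at means of 7.97 ± 1.43 and 8.16 ± 0.32 (SD, n = 3), and Cnot9 in none.

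Adaptors of the BTG and TOB family, which bring the CCR4-NOT deadenylases to mRNAs, were split. Btg4 was read at 20.54, 20.43 and 20.74 in the Ago2-deficient and 18.57, 19.12 and 19.14 in the GV oocytes, with all 3 mutant oocytes above all 3 GV oocytes and little spread in either group. It was higher by 1.63 in log2 units (SE 0.33, limma adjusted p = 0.00506), a 3.09-fold difference. Before normalization its signal was 1083060 to 1670244 in the Ago2-deficient and 603136 to 706734 in the GV oocytes, while its signal-to-noise ratio was lower in the mutant oocytes, at 33.8 to 44.3 against 54.2 to 65.2. The size and the call depended on the scaling. With arrays shifted to a common median the difference was -0.02 (SE 0.53, limma adjusted p = 0.967), which gives no direction. With no scaling it was 1.08 (limma adjusted p = 0.0885).

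Tob1, an antiproliferative adaptor, read 11.77, 12.84 and 11.89 against 10.02, 10.63 and 9.999 in the GV oocytes. Its signal-to-noise ratio was lower in the mutant oocytes, at 4.55 to 19.4 against 23.3 to 43.5. Tob1 was higher by 1.95 (SE 0.42, limma adjusted p = 0.00666). The difference was 0.20 with no scaling and -0.90 with arrays shifted to a common median, neither of them called. Btg2, a relative with antiproliferative activity, went the other way: 6.83, 7.64 and 5.59 in the mutant oocytes, none detected, against 11.10, 10.27 and 10.46 in the GV oocytes. By its bound it was 12.9-fold lower (limma adjusted p = 0.0014). The bound was not reached with centred arrays (-3.08) or cyclic loess (-2.16), where Btg2 was still called. Without Ago2-deficient replicate 3 the bound was -3.38 in log2 units, against -3.69 with all arrays. Btg3 was detected in Ago2-deficient replicates 2 and 3 (10.74 and 12.06, with 8.46 in replicate 1) and in 1 GV oocyte (8.31, with 6.88 and 6.68 in the others), and was not tested. Tob2 was detected in GV replicates 1 and 3, at 9.98 and 9.70, and in no mutant oocyte, and Btg1 in no oocyte.

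Decapping genes were lower or not called. Dcp1a, the activator that joins Dcp2, read 9.19, 8.95 and 9.01 in the Ago2-deficient oocytes, detected in replicates 2 and 3, and 13.34, 12.80 and 13.08 in the GV oocytes. Its log2 difference of -4.03 (SE 0.32, limma adjusted p = 0.000186) had the smallest p of the 20 genes. A dimmer probe of Dcp1a did not show this: it read 6.62, 8.06 and 10.69 against 7.03, 8.99 and 8.59, was detected in 1 mutant and 2 GV oocytes, and was not tested. The 2 probes thus disagree, and the call stands for the brighter one. Edc4, the scaffold on which decapping proteins assemble, was detected in every oocyte, at 14.61, 14.27 and 15.66 against 16.36, 16.31 and 16.50. It differed by -1.54 (SE 0.44, limma adjusted p = 0.0198), below the median of 0.83 for tested genes detected in all 6 oocytes. Relative to the median of all tested genes it was at -0.15. Other scalings put it further below that median, by a log2 difference of -1.25 (common median, no scaling and centred arrays alike) or -1.19 (cyclic loess). The call was lost without any 1 of the GV oocytes (limma adjusted p = 0.0592 to 0.0702), with the difference still between -1.49 and -1.58.

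Dcps, which hydrolyses the cap left after 3′ decay, and Patl1, which links deadenylation to decapping, varied most among the mutant oocytes. Dcps read 6.24, 9.45 and 11.21 against 10.93, 11.61 and 11.43, and Patl1 6.66, 6.67 and 11.62 against 8.81, 9.51 and 9.16. In each the third Ago2-deficient oocyte lay inside or above the GV range and the first below it. Dcps differed by -2.36 (SE 1.18, limma adjusted p = 0.122) and was called at -3.48 without Ago2-deficient replicate 3, and also with no scaling (-3.52), a common median (-4.62), centred arrays (-2.41) or array weights (-2.02). It was -0.99 without Ago2-deficient replicate 1 and -0.69 with cyclic loess, and was called in neither. Patl1 differed by -0.85 (limma adjusted p = 0.6) and was called at -2.50 without Ago2-deficient replicate 3 and at -2.06 with a common median. It was -0.017 without Ago2-deficient replicate 1 and -0.025 without replicate 2, while its sign turned with cyclic loess (0.49) and centred arrays (0.15). Edc3 was detected in no oocyte. Xrn1, the exonuclease that follows decapping, was detected in 1 oocyte of each group, at means of 7.24 ± 1.27 and 7.96 ± 1.19 (SD, n = 3).

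**Figure D3:**
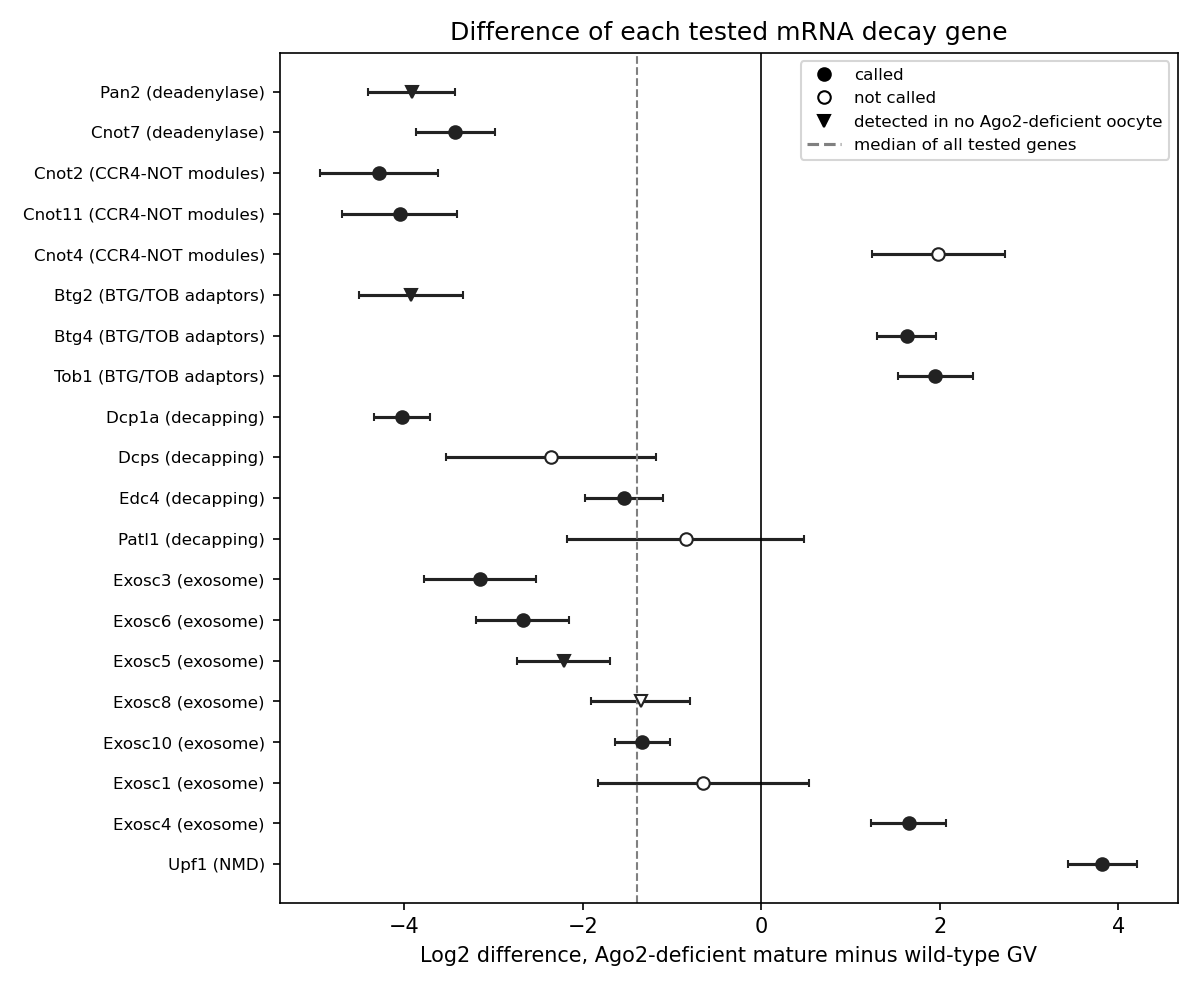
Log2 difference (horizontal axis, Ago2-deficient mature minus wild-type GV) of the 20 tested mRNA decay genes by role, with bars for the standard error from limma; called genes are filled and the others open, triangles mark genes that no mutant oocyte showed (their place is the fitted value), and the dashed line marks -1.39, the median over tested genes. Of the filled symbols 11 lie left of 0 and 4 right of it, and with arrays shifted to a common median none is called to the right.

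Among the exosome genes, 4 of 7 tested were lower and 1 was higher. Exosc10, the nuclear exonuclease of the complex, was detected in all oocytes at 14.83, 14.46 and 14.77 against 16.02, 16.16 and 15.89. It differed by -1.33 (SE 0.31, limma adjusted p = 0.00847), below the median of 0.83 for tested genes detected in all 6 oocytes. It lay 0.06 above the median of all tested genes. Under the other scalings it was called at -4.22 (common median), -3.12 (none), -1.37 (cyclic loess) and -2.01 (centred), and lay -1.14, -1.14, -1.01 and -1.14 from that median, so its place among all genes turned. Exosc4, a subunit of the catalytically inert ring, was higher at 13.64, 13.72 and 12.99 against 11.45, 11.50 and 12.44, by 1.65 (SE 0.42, limma adjusted p = 0.013). The signal-to-noise ratio of Exosc4 was lower in the mutant oocytes, at 18.8 to 33.5 against 54.4 to 68.2. The call of Exosc4 was lost or turned under more alternatives than any other of the 15. It was lost without GV replicate 1 (adjusted p = 0.0538) or 2 (0.0561, both from limma) and with centred arrays (0.53), and the sign turned with no scaling (-0.58) and with a common median, where Exosc4 was called lower (-1.68, limma adjusted p = 0.0156).

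Exosc3, of the cap that guides RNA into the ring, read 6.96, 6.57 and 8.82 in the mutant oocytes, detected in the third, and 10.85, 10.31 and 10.63 in the GV oocytes. It differed by -3.15 (SE 0.62, limma adjusted p = 0.00468), by -3.84 without Ago2-deficient replicate 3, and was not called with cyclic loess (-1.24). Exosc6, a ring subunit, read 7.78, 9.06 and 7.15, detected in the second, against 10.63, 10.76 and 10.61, and differed by -2.68 (SE 0.52, limma adjusted p = 0.00446). Exosc5, another ring subunit, read 6.10, 6.66 and 7.85, detected in none, against 8.69, 9.20 and 9.38. By its bound Exosc5 was 4.62-fold lower (limma adjusted p = 0.00929). Neither Exosc6 nor Exosc5 overlapped between groups. With cyclic loess Exosc6 differed by -0.67 and was not called. Exosc5 fell short of its bound with no scaling (-1.93) and cyclic loess (-1.61), and was not called with centred arrays (-0.83). Without Ago2-deficient replicate 1 the bound of Exosc5 was -1.83 in log2 units. Exosc8 read 8.87, 6.93 and 7.32 against 8.75, 9.27 and 9.16, undetected in the mutant oocytes, and was not called (limma adjusted p = 0.0716), but was called at -1.94 without Ago2-deficient replicate 1, at -2.36 with a common median and at -1.71 with array weights. With cyclic loess it was -0.33 and with centred arrays -0.14, neither called.

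Exosc1 was detected in the third mutant oocyte alone, at 11.26, above the GV values of 9.09, 9.19 and 9.89, and read 8.72 and 6.24 in the others. It differed by -0.65 (limma adjusted p = 0.652). The lowest of these values, 6.24, came from a spot with a flag code over 5000, and without it the difference was 0.60. With cyclic loess the difference was 0.68, and with a common median it was called at -2.24. Of the exosome genes not tested, Exosc2 and Exosc9 were each detected in 2 GV oocytes and in 1 and 0 mutant oocytes. Dis3, the main catalytic subunit of the complex, had the opposite pattern, detected in Ago2-deficient replicates 1 and 2 at 10.61 and 8.49 and in 1 GV oocyte at 7.82.

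Upf1, the helicase at the centre of nonsense-mediated decay, had the largest increase of the 20 genes. It read 15.72, 15.74 and 15.45 in the mutants and 11.71, 12.42 and 11.32 in the GV oocytes, with a wide gap between the groups. As for Btg4, its signal-to-noise ratio was lower in the mutant oocytes, at 31.7 to 37.7 against 44.9 to 58.6. The log2 difference was 3.82 (SE 0.39, limma adjusted p = 0.000362), a 14.1-fold increase. It was 4.06 with cyclic loess, 3.00 with centred arrays, 1.90 with no scaling (limma adjusted p = 0.00969) and 0.79 with a common median, where it was not called (limma adjusted p = 0.222). Its sign was positive in all 5. The other members of this pathway were dim. Smg8, a regulator of the kinase Smg1, read 6.04, 4.46 and 6.08 in the mutant and 7.97, 8.16 and 8.02 in the GV oocytes, detected in replicates 1 and 3 of the latter. Smg6, the endonuclease of the pathway, was detected in 1 GV oocyte and Smg9 in none, and none of the 3 was tested.

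The m6A readers Ythdf1 and Ythdf3, which bind methylated mRNA and can bring CCR4-NOT to it, were detected in no mutant oocyte. Ythdf3 was detected in GV replicates 1 and 3, at 8.94 and 8.31, and Ythdf1 in the third, at 9.11. Neither was tested.

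Changes within an array do not depend on any constant shift of that array, but they can depend on scalings that act by intensity. Among the 7 genes detected in all oocytes, 4 were higher and 2 lower, beside 43.5% higher and 20.2% lower of all 2497 tested genes detected in all oocytes. Before normalization, the log2 signal of Exosc10 minus that of Upf1 was -1.06, -1.55 and -0.73 in the mutant oocytes and 3.87, 3.42 and 4.41 in the GV oocytes. These probes were compared only for their change, since signals of different probes do not give relative levels. The gap changed by -5.01, with no overlap between groups. The gap of Btg4 over Edc4 was 7.26, 6.75 and 5.71 against 2.06, 2.37 and 2.37, a change of 4.31. The gap of Edc4 over Exosc10, both of them lower genes, changed by -0.11, and that of Btg4 over Cnot4 by 0.07. With cyclic loess, however, Btg4 differed by 1.21 and Cnot4 by 3.63, while Exosc10 (-1.37) and Upf1 (4.06) still went opposite ways. The pairs were chosen after their values were seen and were not tested.

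**Figure D4:**
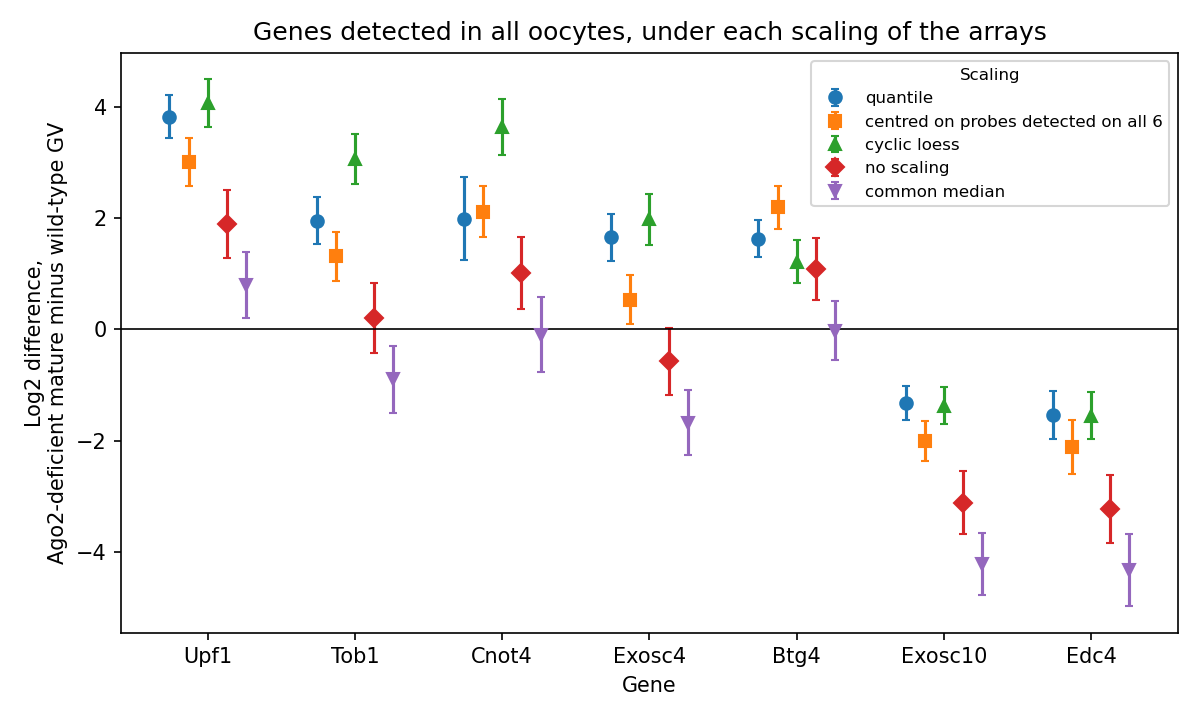
Log2 difference (vertical axis, Ago2-deficient mature minus wild-type GV, with standard errors from limma) of the 7 mRNA decay genes detected in all 6 oocytes under 5 scalings of the arrays. Upf1 stays above 0 and Edc4 and Exosc10 below 0 throughout, while Tob1, Cnot4, Exosc4 and Btg4 fall below 0 with arrays shifted to a common median.

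The spread between oocytes was larger in the mutant group, but less so among genes detected in all oocytes. The SD of the log2 signal was larger in the Ago2-deficient than in the GV oocytes in 16 of the 20 genes (80.1% of all tested genes), with a median of 0.93 against 0.34. Over all tested genes the medians were 0.74 and 0.28. Among the 7 members detected in all 6 oocytes the SD was larger in 4, with medians of 0.40 and 0.32. Of all tested genes so detected, it was larger in 67.6%. Patl1 (2.86), Dcps (2.52) and Exosc1 (2.51) had the largest SD in the mutant oocytes, and each was high in the third oocyte. Part of their spread rests on signals under the detection limit. At the other end were Dcp1a (0.12), Btg4 (0.15) and Upf1 (0.17).

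Other genes that act with this machinery were looked up by 63 symbols, some of them older names of the same genes. Of these genes 40 had a named probe and 30 were tested. These were LSM proteins, poly(A)-binding proteins, exosome and exon junction partners, release factors, and RNA-binding and TNRC6 proteins that recruit CCR4-NOT. There were 6 higher, 9 lower and 15 not called, beside 17.4% higher and 44.8% lower of all tested genes, and the median log2 difference was -0.87 beside -1.39. With arrays shifted to a common median 1 was higher and 22 lower, with no scaling 3 and 17, with cyclic loess 7 and 10, and with centred arrays 5 and 11, to be read beside the shares of all genes given above for each scaling. The largest changes included decreases of Dis3l, a cytoplasmic exosome nuclease (-7.28, SE 1.15), and Pabpn1l (24.2-fold by its bound). Pabpn1l is an oocyte poly(A)-binding protein known to work with Btg4. The others were a decrease of Nanos1, a translational repressor (-3.87, SE 0.37), and an increase of Zfp36, which binds AU-rich elements (3.89, SE 0.37). These 4 kept their direction and call under all 5 scalings. Pabpn1l was, however, at -3.20 with cyclic loess and -3.95 with centred arrays, short of its bound. Dis3l, Pabpn1l and Nanos1 passed the filter only through the GV oocytes, which favoured a decrease. Dis3l and Nanos1 were each detected in 2 mutant oocytes and Pabpn1l in none. The SD of Dis3l in the mutant oocytes was 2.43. Of the genes not called, Pabpn1, the nuclear poly(A)-binding protein, differed by 0.93 (limma adjusted p = 0.0369). At 1.91-fold it fell short only of the fold limit. Gspt2, a release factor, differed by -0.85 (limma adjusted p = 0.0724). With no scaling Pabpn1 was at -0.24 and Gspt2 was called lower (-1.96), and shifting arrays to a common median made both lower calls (-1.34 and -3.07).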

How the data were processed

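Gene expression was measured on chemiluminescent Applied Biosystems mouse arrays, with 1 oocyte per array, from cDNA labelled by in vitro transcription. The deposited files give, for each probe, the scanner's signal intensity, not scaled between arrays, its score of signal over noise, its flag code, and log2 values that the authors quantile normalized over the 6 arrays. The deposited series table holds the same log2 values, with 2675 cells empty at spots with a flag code of at least 5000. The software of the scanner is not named in the paper or the labels used here. Probes with 1 symbol numbered 14411, with several 247 and with none 18354.

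The 8018 probes with a signal over noise of 3 or more on all 3 arrays of a group entered 1 linear model per probe (limma 3.58.1, R 4.3.3; moderated by eBayes, no covariates), with Benjamini-Hochberg adjustment over all of them, after tests on simulated data. Where several probes of a gene were tested, the brightest stood for it, and a probe without a single symbol counted as its own gene. Replicate numbers did not pair the oocytes (correlations of deviations -0.05, 0.03 and -0.03), so no block was used. Every member is accounted for, and tested members are named with their values. Members, roles and companion genes were chosen with earlier results of these data known. The number of arrays limits the precision. Figures used matplotlib 3.10.9 (Python 3.11.15).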

Additional observations from a re-analysis of the deposited data

How the results depend on the processing

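Of the 15 calls, 9 changed under at least 1 alternative. Those of Btg2, Cnot2, Cnot7, Cnot11, Dcp1a and Pan2, all lower, kept direction and call under all 18 alternatives that could be fitted. These calls are of genes that passed the filter only through the GV oocytes, which favoured that direction. They were not fitted among probes detected on all 6 arrays. Their size was less stable: with cyclic loess Btg2 was at -2.16, Cnot2 -2.25, Cnot7 -1.31, Cnot11 -2.36, Dcp1a -2.55 and Pan2 -1.92, and with a common median all 6 were between -6.47 and -4.98. The number of higher genes, 4, became 0 when arrays were given a common median and 1 without scaling. The number of lower genes, 11, became 2 among probes detected on all 6 arrays, where only 7 members were fitted. Leaving out 1 array gave 3 to 5 higher and 10 to 13 lower genes, and the replicate block gave 4 and 11, with no call changed. The sign turned with a common median for Btg4 (-0.024), Cnot4 (-0.10), Exosc4 (-1.68) and Tob1 (-0.90), with no scaling for Exosc4 (-0.58), with cyclic loess for Exosc1 (0.68) and Patl1 (0.49), with centred arrays for Patl1 (0.15), and for Exosc1 with flagged spots missing, with the series table, and without Ago2-deficient replicate 2 (0.60 each; -1.91 without Ago2-deficient replicate 3). With no filter on dim probes Edc4 (adjusted p = 0.0779), Exosc4 (0.0551) and Exosc10 (0.0571, all from limma) were not called. The causes were not tested. Genes under the detection limit have no measured level in the Ago2-deficient oocytes.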
